A study of Mus musculus with 10 samples.

Results

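Mrc2, Megf11 and Inpp5a are 3 mouse genes near which more chromatin loops were called after IL-4 than in untreated macrophages. They were chosen by that difference in loop number, so the counts of M2[IL-4] against M0[CTR] are a description and carry no test. A loop counted for a gene when either of its anchor bins overlapped the 100 kb on either side of the gene's transcription start site (TSS) in GENCODE M21. By this rule 907 of 301424 list entries belonged to the 3 genes, out of 21755 protein-coding genes on the autosomes and the X chromosome.

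The data come from Hi-C, in which DNA cut with MboI is ligated to whatever lies nearby in the nucleus and the junctions are sequenced. Bone marrow-derived macrophages were grown in M-CSF from wild type female C57BL/6 mice aged 2-3 months, and treatment began on day 6 of differentiation. The 5 groups of 2 replicates each were untreated cells (M0[CTR]), cells given IL-4 at 20 ng/ml for 24 h (M2[IL-4]), the same cells after washing and 24 h of rest (M2p[pIL-4]), cells given IFNG at 20 ng/ml for 3 h (IFNG), and cells given IFNG in the same way after IL-4, washing and rest (pIL-4 + IFNG). M0[CTR] and IFNG cells had never seen IL-4, and every group had M-CSF. Each group had 1 loop list, from 53424 loops for M0[CTR] up to 67728 for M2p[pIL-4], so no value below has a replicate check. Sets of 5 values below run in the order in which the groups are named here. Loop lists carry no expression, and the macrophage label could not be set against marker genes. In pooled cells, a contact made in more cells and a contact made more often per cell cannot be told apart.

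Chromatin loops often form where cohesin, which extrudes DNA, halts at the DNA-binding factor CTCF, and such sites commonly face each other at the ends of a loop. Other loops join enhancers and promoters. IL-4 acts on macrophages through the transcription factor STAT6 and drives alternative polarization. Mrc2 encodes uPARAP, an endocytic receptor of the mannose receptor family that takes up collagen. Megf11 encodes a membrane protein with multiple EGF-like domains, known for spacing neurons in the retina. Inpp5a encodes a phosphatase that removes a phosphate from inositol trisphosphate and so ends its calcium signal.

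All 3 genes lie on the plus strand. Mrc2 (ENSMUSG00000020695.14) spans chr11:105292643-105351139 in mm10, Megf11 (ENSMUSG00000036466.17) spans chr9:64385626-64709205 and Inpp5a (ENSMUSG00000025477.14) spans chr7:139389109-139579652. Megf11 is the longest at 324 kb, against 191 kb for Inpp5a and 58.5 kb for Mrc2. No other protein-coding TSS lies within 100 kb of that of Mrc2 or Inpp5a. Dis3l, which encodes an exoribonuclease of the cytoplasmic RNA exosome, has its TSS at -44.3 kb from that of Megf11 and shares most of its window.

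The anchor bins that carried many of these loops are shown first by their CTCF-type sequences, because each gene had 1 bin with 20 or more loops over the 5 lists and an exact match to the 14-letter CTCF consensus. Letters of the match are in capitals, with 13 bases of GRCm38 on each side, read along the matched strand. The first 3 are those exact matches. The last, which misses 1 of the ambiguous letters, is shown because it lies close to the Inpp5a TSS.
Mrc2 intron, chr11:105332667-105332680, plus strand: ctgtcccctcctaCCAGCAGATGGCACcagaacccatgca
Megf11 intron, chr9:64394355-64394368, plus strand: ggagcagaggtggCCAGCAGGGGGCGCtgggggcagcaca
upstream of Inpp5a, outside coding genes, chr7:139303470-139303483, plus strand: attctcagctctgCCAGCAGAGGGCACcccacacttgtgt
Inpp5a intron, chr7:139394194-139394207, plus strand: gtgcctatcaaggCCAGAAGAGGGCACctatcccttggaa
The Mrc2 match lies in the bin centred 42.4 kb downstream of the TSS, which carried 6, 22, 15, 15 and 16 loops. The Megf11 match lies in the bin centred 9.37 kb downstream, which carried 9, 16, 14, 9 and 8 loops, the most of any bin near Megf11 when summed over the lists. The exact match upstream of Inpp5a lies in the bin centred at -84.1 kb from its TSS, which carried 5, 11, 8, 8 and 8 loops. The last match lies in the bin centred 5.89 kb after the Inpp5a TSS, which carried 0, 2, 3, 0 and 1 loops. All 4 are on the plus strand. The partners of the Mrc2 bin lay downstream of it, whereas 4 of the 6 loops of the last bin led upstream.

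Matches were not a general property of these anchors. With the 7 fixed letters matched and at most 1 ambiguous letter missed, on either strand, 8 of 67 anchor bins near Mrc2, 6 of 66 near Megf11 and 8 of 34 near Inpp5a held a match. That is 11.9%, 9.09% and 23.5% of bins, beside 12.8% of the 38129 fully sequenced bins of chromosomes 7, 9 and 11. Median GC was 40.8%, 47.5% and 49.1% in these anchor bins and 42.8% over all bins, and the background was not matched for it. Among bins with 20 or more loops over the 5 lists, 3 of 13, 2 of 12 and 2 of 6 held one. Exact matches were in 3.56% of all bins. No minus-strand match was found in the near partner bins of Mrc2, in those inside Megf11 or in those inside Inpp5a, which says only that these letters are absent there. Among the farther downstream partners, minus-strand matches lay at chr11:105969768-105969781 in Ace (exact), chr11:106026941-106026954 in Kcnh6 (1 letter missed) and chr9:64936676-64936689 in Slc24a1 (exact). Their bins carried few loops, 1, 4 and 3 over the 5 lists. Upstream partners held minus-strand matches too, each with 1 letter missed, in Zwilch near Megf11 and in Stk32c and Lrrc27 near Inpp5a. The Lrrc27 bin at chr7:139230001-139240000 held 2 of them and carried 24 loops over the 5 lists. The median number of MboI sites was 24 per anchor bin near each gene and 25 over all bins.

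The first question was how loop number moved with IL-4, after washout and with IFNG. Near Mrc2, 58, 116, 78, 83 and 90 loops were called. Near Megf11, the numbers were 49, 101, 62, 48 and 53. Near Inpp5a, they were 21, 44, 38, 27 and 39. M2[IL-4] was highest for each gene, and for Mrc2 and Inpp5a M0[CTR] was lowest. Megf11 had nearly as many loops in IFNG as in M0[CTR], whereas Inpp5a had more in each of the 3 groups that had seen IL-4 than in either that had not. The lists of M2p[pIL-4] and pIL-4 + IFNG are 127% and 125% as long as that of M0[CTR], so the ratios below are scaled. Loop counts by bin, zone and patch are not scaled.

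**Figure D1:**
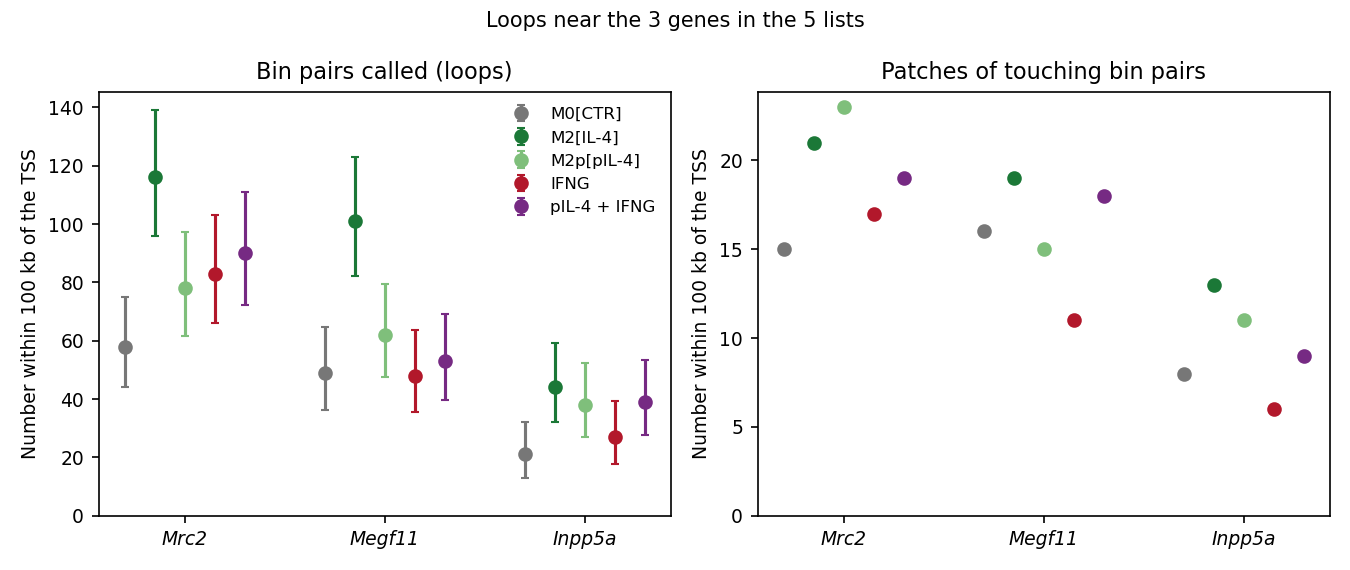
Loops within 100 kb of the TSS of each gene in the 5 lists (left; bars are exact Poisson 95% intervals, which cover counting error only), and the same after joining touching bin pairs (right). M2[IL-4] stands highest for all 3 genes on the left, with 116, 101 and 44 loops, whereas on the right M2p[pIL-4] is highest for Mrc2 with 23.

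Scaled by list length, with 1 loop added to each count, the log2 ratio of M2[IL-4] over M0[CTR] was 0.86 for Mrc2 (95% interval 0.41 to 1.36), 0.90 for Megf11 (0.41 to 1.44) and 0.91 for Inpp5a (0.16 to 1.77). The intervals are exact binomial ones and cover counting error only, and they are too narrow because neighbouring bin pairs are not independent. None of the 3 genes passed a 2-fold threshold, which 4.24% of 13842 genes with at least 5 loops in both lists together did. Their ranks among those genes were 860, 664 and 663. Without scaling, Mrc2 and Megf11 had the largest differences of all 21755 genes, at 58 and 52 loops, and Inpp5a ranked 104 with 23. These ranks restate how the genes were chosen.

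After washout the ratios parted. M2p[pIL-4] over M0[CTR] was 0.08 for Mrc2 (-0.42 to 0.60), -0.01 for Megf11 (-0.57 to 0.57) and 0.48 for Inpp5a (-0.29 to 1.36). None reached 2-fold, beside 3.42% of genes. M2p[pIL-4] over M2[IL-4] was -0.78 for Mrc2 (-1.22 to -0.36), -0.91 for Megf11 (-1.40 to -0.45) and -0.42 for Inpp5a (-1.09 to 0.23). None was 2-fold lower, beside 2.05% of genes. Scaled loop numbers near Mrc2 and Megf11 were thus close to those of untreated cells, and the value for Inpp5a lay between those of M0[CTR] and M2[IL-4]. These comparisons share the lists that chose the genes, so a high M2[IL-4] count lowers the second ratio by construction.

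The ratios with IFNG were smaller than those of M2[IL-4] over M0[CTR]. That difference chose the genes, so the order of the 2 treatments is no result. IFNG over M0[CTR] was 0.47 for Mrc2 (-0.03 to 0.98), -0.07 for Megf11 (-0.68 to 0.53) and 0.31 for Inpp5a (-0.56 to 1.22), with none past 2-fold beside 4.41% of genes. pIL-4 + IFNG against IFNG involves neither of the lists whose difference chose the genes. Its ratio was -0.17 for Mrc2 (-0.61 to 0.28), -0.14 for Megf11 (-0.73 to 0.45) and 0.23 for Inpp5a (-0.50 to 1.01), with none past 2-fold beside 3.26% of genes. Every interval held 0, so with 1 list each no difference in loop number was detectable between IFNG cells with and without earlier IL-4. pIL-4 + IFNG over M2p[pIL-4] was 0.22, -0.21 and 0.05, with none past 2-fold beside 3.72% of genes.

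**Figure D2:**
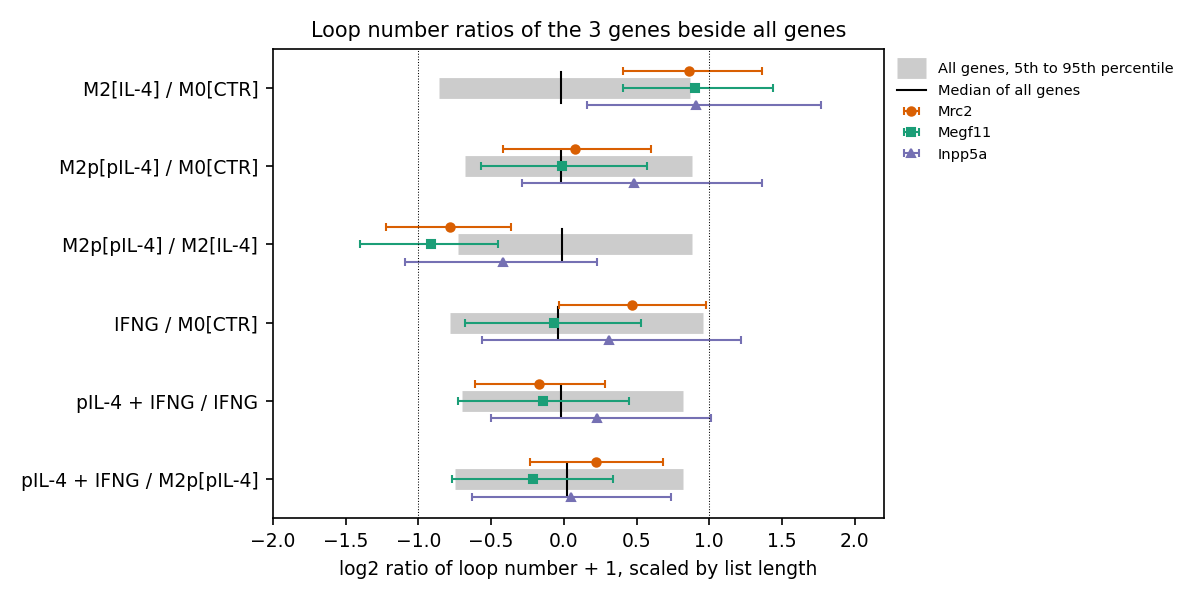
Scaled log2 ratios of loop number for the 3 genes (points, with exact binomial 95% intervals for counting error) in 6 comparisons, over the 5th to 95th percentile (grey bars) and median (black ticks) of all genes with at least 5 loops in both lists together. The 3 genes sit near the upper end of the grey bar in M2[IL-4] over M0[CTR], at 0.86 to 0.91, and within it in every other comparison except Mrc2 and Megf11 in M2p[pIL-4] over M2[IL-4]. Dotted lines mark 2-fold.

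Many of the bin pairs touch each other. When those within 1 bin of each other at both anchors were joined, Mrc2 had 15, 21, 23, 17 and 19 patches. Megf11 had 16, 19, 15, 11 and 18 patches, and Inpp5a had 8, 13, 11, 6 and 9. The scaled log2 ratio of M2[IL-4] over M0[CTR] was then 0.34 (-0.66 to 1.42), 0.11 (-0.91 to 1.18) and 0.52 (-0.80 to 2.06). Of the M2[IL-4] bin pairs that M0[CTR] did not call, 70 of 88 near Mrc2, 47 of 65 near Megf11 and 17 of 27 near Inpp5a had an M0[CTR] loop within 25 kb at both anchors. That is 79.5%, 72.3% and 63%, beside 75.6% of the 32326 such pairs of the whole series, so the 3 genes lay on both sides of it. The pairs that M0[CTR] did not call made up 75.9%, 64.4% and 61.4% of the M2[IL-4] pairs near Mrc2, Megf11 and Inpp5a, beside 55.5% over the series. Choosing genes with more loops in M2[IL-4] than in M0[CTR] raises this share by construction.

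Contacts at bin pairs called in both lists moved little. Summed over 28 such pairs near Mrc2, M0[CTR] held 730 contacts and M2[IL-4] 827, a ratio of 1.13 after scaling (log2 interval 0.04 to 0.33), with 18 pairs higher and 3 lower. Near Megf11, 36 pairs summed to 1047 and 1262 contacts, a ratio of 1.21 (log2 interval 0.15 to 0.39), with 25 higher and 9 lower. Near Inpp5a, 17 pairs summed to 693 and 707 contacts, a ratio of 1.02 (log2 interval -0.12 to 0.18), with 6 higher and 10 lower. Pairs near Inpp5a that both lists called thus held similar counts in this window, though other settings, given at the end, moved that ratio. A difference in loop number lies by definition in pairs that only a single list called. Over the 25934 pairs shared across the genome, the ratio of summed contacts was 0.999.

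A core of bin pairs was called in all 5 lists, 15 near Mrc2, 20 near Megf11 and 12 near Inpp5a. Relative to M0[CTR] and scaled to all 14063 such pairs, the Mrc2 core held 1.17, 1.09, 1.17 and 1.12 times the contacts in the other 4 groups. The Megf11 core held 1.22, 1.13, 0.986 and 1.08 times. The Inpp5a core held 1.02, 1.03, 1.12 and 1.03 times. M2[IL-4] stood highest for Megf11, was level with IFNG for Mrc2, and was below IFNG for Inpp5a.

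Near Mrc2, every loop ran downstream out of the window, and its own TSS bin carried few. That bin had 1, 2, 1, 0 and 0 loops in the 5 lists, of 11 to 15 contacts each. The loops started mostly in the later exons and introns of Mrc2 and in March10, a neighbouring gene for a ubiquitin ligase. The bin centred 52.4 kb downstream of the TSS carried most when summed over the lists, with 12, 22, 14, 17 and 20 loops, though the 42.4 kb bin had as many in M2[IL-4] and 1 more in M2p[pIL-4]. The strongest bin pair joined March10 at chr11:105360001-105370000 to the first 10 kb of Tanc2, a synaptic scaffold gene, at chr11:105590001-105600000. It held 56, 73, 64, 67 and 74 contacts, up to 2.85 times the median count at its span of 230 kb. It was a loop of every group.

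The Mrc2 partners were described in a near, a middle and a far zone, drawn after the bin pairs had been seen. The near zone at chr11:105550001-105620000 holds the start of Tanc2 and had 26, 27, 31, 37 and 31 loops. The middle zone at chr11:105620001-105850000, within Tanc2, had 14, 25, 15, 16 and 27 loops. The far zone at chr11:105850001-106030000 holds the end of Tanc2, Cyb561, Ace, Ace3 and Kcnh6. It had 15, 58, 29, 29 and 29 loops. M0[CTR] and M2[IL-4] were thus 1 loop apart in the near zone and farthest apart in the far zone. There the other 3 groups had equal counts, but the IFNG list is the shortest of those 3. The middle zone was about as full as the far zone in M0[CTR] and pIL-4 + IFNG. Contacts in far-zone loops summed to 244, 942, 441, 458 and 479. Loops of 500 kb or more numbered 16, 61, 30, 28 and 34 near Mrc2, whereas the whole lists held 6025, 6477, 7121, 6636 and 7200 of that length.

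**Figure D3:**
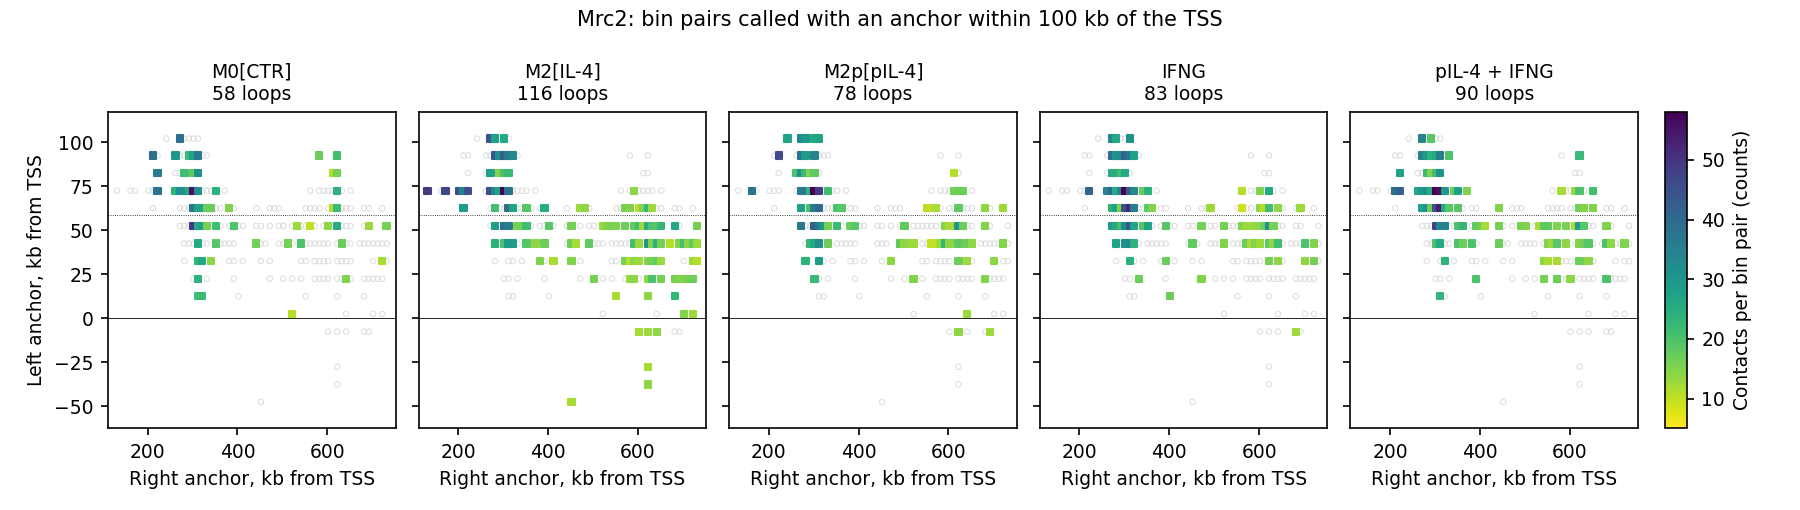
Bin pairs called near Mrc2 in each list, placed by the distance of their left and right anchors from the TSS in kb and coloured by contacts. Open grey circles are pairs called in another list only, solid lines mark the TSS and the dotted line the gene's end. The near block at about 300 kb fills in all 5 lists, and the far block from 557 to 737 kb is fullest in M2[IL-4], with 58 loops against 15 in M0[CTR].

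Single far pairs were less uniform. The pair of Mrc2 at chr11:105330001-105340000 and a late exon of Tanc2 at chr11:105910001-105920000 was not called in M0[CTR] and held 30, 18, 18 and 15 contacts in the other 4. The neighbouring pair from chr11:105340001-105350000 to the same partner was called in every list, with 25, 25, 31, 31 and 29 contacts. One bin to the side, M0[CTR] thus had a like long contact, with as many contacts as M2[IL-4]. The pair from chr11:105340001-105350000 to an exon of Ace at chr11:105970001-105980000 was called in the 3 groups that had seen IL-4 and in no other, with 26, 15 and 15 contacts. M0[CTR] called the pair 1 bin further on, with 13. Ace encodes angiotensin-converting enzyme, and Cyb561 a membrane electron carrier. The Ace window held 27 loops in M0[CTR] against 75 in M2[IL-4], and the Cyb561 window 28 against 72.

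The TSS bin of Megf11 carried more loops than that of Mrc2 in every list. That bin at chr9:64380001-64390000 carried 5, 11, 6, 6 and 6 loops. The loops with both anchors in the gene numbered 22, 47, 27, 24 and 23. The first part of the gene was thus joined to its last part in every group. The TSS bin and chr9:64620001-64630000, in an intron, held 32, 48, 36, 35 and 28 contacts. The strongest pair ran from the bin with the exact CTCF match to chr9:64630001-64640000 and held 53, 71, 52, 51 and 55 contacts. Both were highest in M2[IL-4] and within a few contacts of M0[CTR] in the other groups. The second strongest pair, from the same CTCF-match bin to chr9:64620001-64630000, held 39, 60, 62, 36 and 60 contacts, and was higher in each of the 3 groups that had seen IL-4.

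The intragenic partner zone of Megf11 at chr9:64610001-64660000 had 29, 41, 33, 32 and 34 loops. Past its edge, the last 50 kb of the gene at chr9:64660001-64710000 had 3, 24, 10, 6 and 6 loops. Beyond the gene, chr9:64870001-65180000 had 3, 12, 9, 1 and 3 loops, in Dennd4a, Slc24a1 and further genes. The zones were drawn after the pairs had been seen, and M2[IL-4] was highest in each. The TSS bin showed the same edge. It met the 4 bins from chr9:64660001 to chr9:64700000 in M2[IL-4] with 23, 20, 28 and 20 contacts, and in M0[CTR] and IFNG it met none of them.

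**Figure D4:**
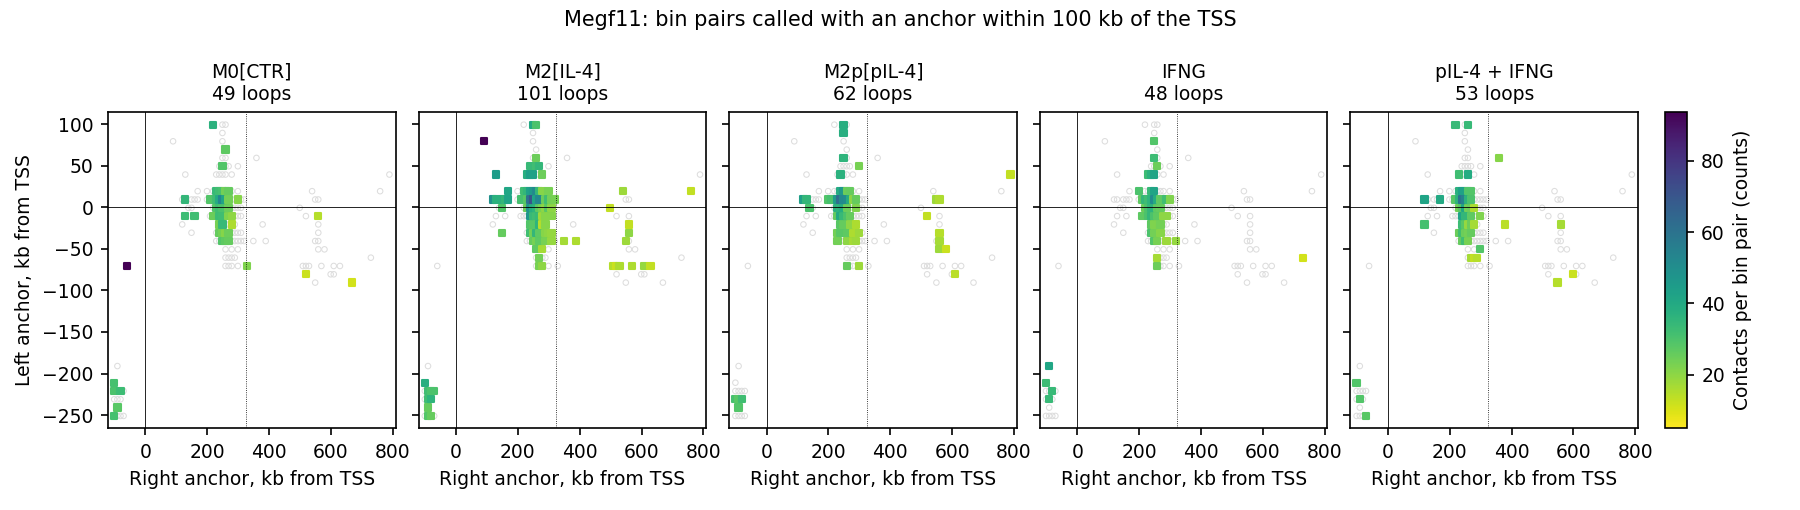
Bin pairs called near Megf11 in each list, drawn as for Mrc2. The block of left anchors around the TSS and right anchors at 224 to 274 kb is filled in all 5 lists, with 29 to 41 loops. Between it and the dotted line, M2[IL-4] holds 24 loops and the other lists 3 to 10.

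Few of the Megf11 pairs added after IL-4 were called in the other lists. Of 65 pairs called in M2[IL-4] and not in M0[CTR], 13 were called after washout, 10 with IFNG and 9 with IFNG after IL-4, which is 20%, 15.4% and 13.8%. Over the series these shares were 29.8%, 23.5% and 29.2% of 32326 such pairs. Of the 88 pairs near Mrc2, 25%, 30.7% and 27.3% were called in these lists. Of the 27 near Inpp5a, 33.3%, 22.2% and 37% were. The 3 genes thus lay on both sides of the series. One Megf11 pair found again after washout joined the CTCF-match bin to chr9:64500001-64510000, with 49, 44 and 42 contacts in the 3 groups that had seen IL-4, and was not called in the other two. The pair 1 bin further, to chr9:64510001-64520000, was called in M0[CTR] with 35 contacts, after IL-4 with 37 and after washout with 35. Pairs called in at least 2 of the groups that had seen IL-4 and in neither of the others were 8.28% of the pairs near Megf11, beside 8.22% over the series. Dis3l, with its overlapping window, had 58, 107, 68, 57 and 65 loops in the 5 lists.

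Near Inpp5a, the largest patch of touching bin pairs over the 5 lists ran from an upstream stretch without coding genes to the middle of the gene. It joined chr7:139290001-139350000 to chr7:139430001-139500000 and held 7, 17, 12, 11 and 17 loops. Loops to any partner numbered 11, 19, 16, 15 and 18 at chr7:139280001-139310000 upstream. They numbered 12, 23, 24, 16 and 26 in the intragenic zone at chr7:139450001-139500000. The strongest pair ran from the upstream bin with the exact CTCF match to chr7:139470001-139480000. It held 54, 44, 70, 60 and 60 contacts, so M2[IL-4] was the lowest of the 5 at the strongest contact. A pair from Lrrc27, a leucine-rich repeat gene further upstream, to the same intragenic bin held 35, 34, 32, 50 and 39.

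**Figure D5:**
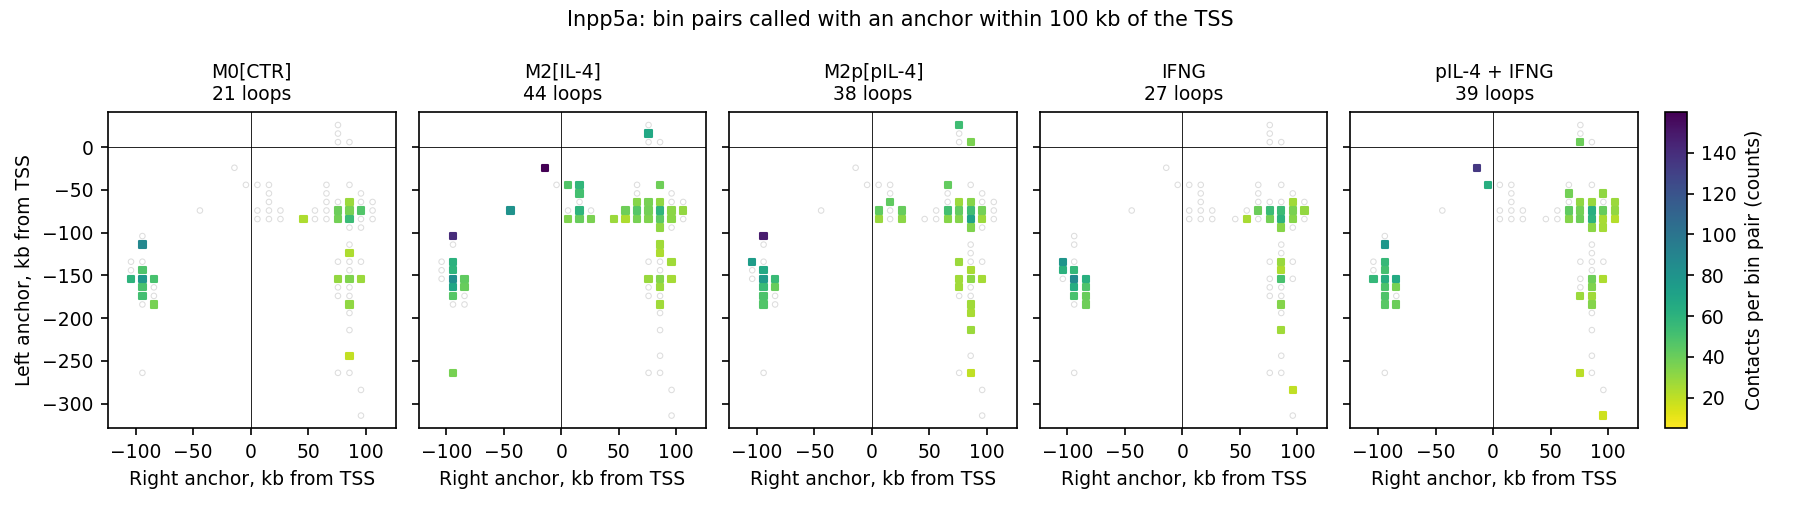
Bin pairs called near Inpp5a in each list, drawn as for Mrc2, with the gene's end beyond the plotted range. The blocks of right anchors between -109 and -79.1 kb and between 60.9 and 111 kb are filled in all 5 lists, and pairs with a right anchor 5.89 to 25.9 kb after the TSS are filled after IL-4 and after washout only.

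The lists also parted at the start of Inpp5a itself, though not only there. Within 25 kb of its TSS, 0, 9, 7, 0 and 3 loops were called. One of the 9, and 1 of the 3, joined adjacent bins. A count of 0 allows up to 3 loops by counting error alone. Of 10482 genes with 10 or more loops within 25 kb over the 5 lists, 12 (0.114%) had none in M0[CTR] and IFNG. Of these, 8 (0.0763% of the 10482) had at least 1 in each of the other lists, Inpp5a among them. Inpp5a reached the minimum of 10 loops only through the groups that had seen IL-4. Not all of the 8 are separate loci, as Mgat2 and Rpl36al on chromosome 12 had the same counts. The reverse, none in the 3 groups that had seen IL-4, held for 0 genes. It is no mirror image, because it asks for more lists to be empty, the longest among them. The pattern at Inpp5a was singled out after the counts had been seen and was not tested.

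The pairs behind it held counts on both sides of the usual for their span. The bin with the exact CTCF match upstream met the bin centred 5.89 kb after the TSS with 35 contacts after IL-4 and 29 after washout. It met chr7:139410001-139420000 with 36 and 32 contacts in the same groups. The M0[CTR] list had a median of 43 contacts at the span of the first pair and 39 at that of the second, and a lowest of 20 and 16. The bin next to it, chr7:139310001-139320000, met chr7:139400001-139410000 with 59 contacts after IL-4, above the M0[CTR] median of 43. Pairs of these counts were thus called in M0[CTR] elsewhere, and how many contacts M0[CTR] had at these bins was not analysed here. In pIL-4 + IFNG, the TSS bin met chr7:139340001-139350000 with 63 contacts, the single loop of the TSS bin in any list.

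The order of the 5 groups was compared with that of other genes by the distance of centred log2 loop numbers, scaled by list length, which is a likeness over 5 lists and no more. Nearest to Mrc2 were Ahcyl1, Cd52 and Csf1, at distances of 0.128, 0.149 and 0.154 beside a median of 0.879 over 14556 genes. Csf1, which encodes the growth factor M-CSF itself, had 15, 32, 23, 24 and 27 loops. Nearest to Megf11 were Eva1c, Sergef and Tinagl1, of which Tinagl1 had 8, 19, 11, 9 and 10 loops. Nearest to Inpp5a were Gm7247, Gm34653 and Kyat1, an aminotransferase gene of kynurenine metabolism, which had 22, 44, 39, 26 and 42 loops. The 3 genes were less like each other, at distances of 0.44 between Mrc2 and Inpp5a, 0.568 between Mrc2 and Megf11 and 0.649 between Megf11 and Inpp5a.

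Few relatives of the 3 genes were past 2-fold, which the 3 genes were not either. Of 19 genes of the mannose receptor family and of collagen uptake and breakdown, 17 had enough loops, and none was 2-fold higher or lower in M2[IL-4] than in M0[CTR]. Their median log2 ratio was 0.10, beside -0.02 over all genes. Mrc1, the mannose receptor and a marker of alternative activation, had 21, 14, 23, 13 and 25 loops in the 5 lists. Of 17 EGF-repeat and engulfment receptors, 11 had enough loops, 2 were 2-fold higher and none lower, with a median of -0.00. Over all 13842 genes, 587 were 2-fold higher (4.24%) and 454 lower. The 2 of this list were Pear1, a platelet receptor gene of the same family, with 0, 5, 2, 4 and 7 loops, and Scarf2, a scavenger receptor gene, with 3, 8, 8, 3 and 9. Of 27 inositol phosphate and phosphoinositide genes, 25 had enough loops, 1 was 2-fold higher and none lower, with a median of 0.07. That 1 was Itpr1, the receptor for the molecule that Inpp5a breaks down, with 4, 10, 13, 20 and 21 loops, which was highest in both IFNG groups.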

How the data were processed

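Hi-C was run on 10 samples in 5 groups, and 1 loop list per group was used. Each list was taken to merge the replicates of its group, because its loop names give the group alone. For each called pair of 10 kb bins, the lists that the authors deposited give a count of contacts as a whole number. According to the methods, reads went through the nf-core/hic pipeline (HiC-Pro, bowtie2) and loops were called with HICCUPS at 25 kb. The labels' processing notes name FastQC, Bowtie2, HiC-Pro, Juicer, HOMER and mm10. The caller and threshold of these 10 kb lists are not given in the sources used here, so a pair that was not called may lie just under it. A list holds called contacts and not a library's depth.

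Loops were counted within 100 kb of the GENCODE M21 TSS and divided by list length after adding a pseudocount of 1 loop. Exact 95% intervals cover counting error only. Genes needed 5 loops in both lists together. Strength was a count over the median at the same span, within 2 bins, in the same list. CTCF matches were searched on GRCm38.p6. Alternatives were other windows, all transcript starts, no scaling, equal list lengths, joined bin pairs, longer spans, another pseudocount, other minimum loop numbers and exact CTCF matches. The counting was tested on simulated data. Non-members named have a TSS or body in a listed partner bin, a similar profile, or a place in one of 3 gene lists and a 2-fold ratio. March10, Dis3l, Ace, Cyb561, Mrc1 and the genes of the zones were also named for position or role after their values were seen. The members and lists were chosen with earlier results of these data known. The work was done in Python 3.11.15, using scipy 1.17.1, pandas 2.3.3 and numpy 2.4.6, with matplotlib 3.10.9 for plots.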

Additional observations from a re-analysis of the deposited data

How the results depend on the processing

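No paired analysis was possible because replicates were merged into a single list, and for the same reason no replicate could be left out. Of 162 alternative values of the loop number ratios, 145 stayed within the interval of the value reported, and of 86 contact ratios 82 did. For M2[IL-4] over M0[CTR], the log2 ratio was 1.68 for Mrc2 and 3.20 for Inpp5a within 25 kb, and 1.39 and 2.58 within 50 kb. Joining touching bin pairs gave 0.34 for Mrc2 and 0.11 for Megf11. For M2p[pIL-4] over M2[IL-4] at Mrc2 it gave -0.01, and 25 kb gave -1.80. At Mrc2, 25 kb gave -0.31 for IFNG over M0[CTR], and joining gave -0.25 for pIL-4 + IFNG over M2p[pIL-4]. At Megf11, joining gave 0.46 for pIL-4 + IFNG over IFNG. At Inpp5a, M2p[pIL-4] over M0[CTR] was 2.66 within 25 kb and 1.83 within 50 kb, pIL-4 + IFNG over IFNG was 1.72 and 2.30, IFNG over M0[CTR] was -1.04 within 50 kb and pIL-4 + IFNG over M2p[pIL-4] was -0.98 within 25 kb. Ratios of Inpp5a against M0[CTR] or IFNG at 25 and 50 kb rest on 0 or 1 loop in a list and on the pseudocount, and are no measure of size.

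For contacts shared at Inpp5a, M2[IL-4] over M0[CTR] was 0.22 within 50 kb and 0.19 with the best count within 25 kb, and M2p[pIL-4] over M2[IL-4] was -0.26 and -0.17. M2[IL-4] pairs not called in M0[CTR] were 15.5%, 17.8% and 22.7% for Mrc2, Megf11 and Inpp5a when matched within 25 kb, and 84.8% for Mrc2 and 91.7% for Inpp5a in the 50 kb window. With 10 or more loops required, and with 1, the genes past 2-fold numbered 311 and 903 for M2[IL-4] over M0[CTR], 257 and 883 for M2p[pIL-4] over M0[CTR], 147 and 1008 for M2p[pIL-4] over M2[IL-4], 367 and 1008 for IFNG over M0[CTR], 230 and 808 for pIL-4 + IFNG over IFNG, and 320 and 1381 for pIL-4 + IFNG over M2p[pIL-4]. Exact CTCF matches were in 3, 2 and 2 anchor bins near Mrc2, Megf11 and Inpp5a. These settings change how many loops or genes enter, and the cause of the moves was not tested further.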
